A study of Mus musculus with 24 samples.

Results

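The genes followed here are 8 that act in the removal of nuclei and mitochondria from lens fiber cells: Dnase2b, Bnip3, Bnip3l, Pink1, Gabarapl1, Sqstm1, Tfeb and Fyco1. They were taken by symbol, from a list chosen with earlier results of these data known. All 8 are among the 12611 gene symbols of the count table and among the 12427 that passed the filter on low counts. The libraries are ribosome-depleted total RNA of microdissected CD1 mouse lenses, with no genetic change or treatment in any group. The 8 groups of 3 biological replicates are lens epithelium and lens fiber from embryos of stages E14.5, E16.5 and E18.5, counted in days, and from newborns (P0.5). The epithelium is the sheet of dividing cells on the front of the lens. Fiber cells arise from it and fill the lens body. Whether 1 replicate pools several animals, and whether equal replicate numbers share animals, is not stated in the labels.

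The cells of the lens core destroy their nuclei, mitochondria and endoplasmic reticulum so that light can pass. Dnase2b encodes a lysosomal acid DNase of the DNase II family, the enzyme that removes fiber cell DNA. Damaged or surplus mitochondria are taken up by autophagosomes in mitophagy: Bnip3 and Bnip3l (also called Nix) encode receptors of the outer mitochondrial membrane that bind Atg8 proteins, and Pink1 a kinase that accumulates on depolarized mitochondria and activates the ubiquitin ligase parkin. Gabarapl1 encodes an Atg8 protein of the autophagosome membrane, Sqstm1 the cargo receptor p62, and Fyco1 an adaptor that links autophagosomes to kinesin and is mutated in a form of inherited cataract. Tfeb encodes a transcription factor that drives lysosome and autophagy genes. RNA levels say nothing of the activity of these proteins.

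Epithelium libraries held 7658794 to 11819117 counts and fiber libraries 13010174 to 21617737. The 9 fiber markers, such as the beaded filament gene Bfsp1, were all higher in fiber averaged over stages (8 of 9 in each of the first 2 stages) and the 8 epithelium markers, such as Cdh1, all lower. Ribosomal Rn45s took 3.98% to 28.9% of the counts, most in E18.5 fiber replicate 2, which also had the lowest TMM factor (0.442), and 16.3% in E16.5 fiber replicate 2. Crystallin genes took 23.3% to 43.9% of the counts of a fiber library and 1.66% to 4.28% of an epithelium library, so the scaling of libraries sets the level of every other gene in fiber. With TMM scaling, used here unless another is named, the median log2 difference of all genes between fiber and epithelium was -0.03. It was -1.23 with library size only and -0.70 with library size after crystallin genes were left out. Levels are given as CPM, counts scaled to a common TMM-adjusted library size, changes are log2 differences from edgeR's quasi-likelihood fit with standard errors (SE), and a gene passed at an adjusted p under 0.05 with at least a 2-fold change. In bulk tissue, fewer cells of a type and less RNA per cell cannot be told apart.

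Averaged over the 4 stages, 5 of the 8 genes were higher in fiber and none was lower, with a median log2 difference of 1.33. Of all genes tested 15.7% were higher and 22.2% lower in this comparison. The 5 were Dnase2b, Gabarapl1, Tfeb, Bnip3 and Bnip3l, and Sqstm1, Fyco1 and Pink1 did not reach 2-fold. Other cell types differed with the tissue: all 8 endothelium markers were lower in fiber (summed level 10.6 to 37.6 CPM, against 236 to 441 in epithelium), as were 6 of 7 macrophage markers, and their part in these differences was not tested. With library size only, 2 of the 8 passed, Dnase2b and Gabarapl1, and with library size after crystallins were left out 3 passed, these and Tfeb. With the first of these scalings 587 of all 12427 genes were higher and 7423 lower. With the second 869 of 12400 were higher and 4831 lower. At single stages, 4 of the 8 were higher in fiber at E14.5 (14% of all genes), 3 in the E16.5 comparison (14.6%), 6 in that of E18.5 (17.4%) and 5 at P0.5 (17.5%). None was lower, where 19.4%, 20.4%, 24.2% and 24.5% of all genes were at these stages. Pink1 was lower in fiber at E18.5 (-1.05) and P0.5 (-1.14) with library size only. With that scaling the medians of all genes were -1.52 and -1.5 at these stages, and 8557 and 8439 of 12427 genes were lower.

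**Figure D1:**
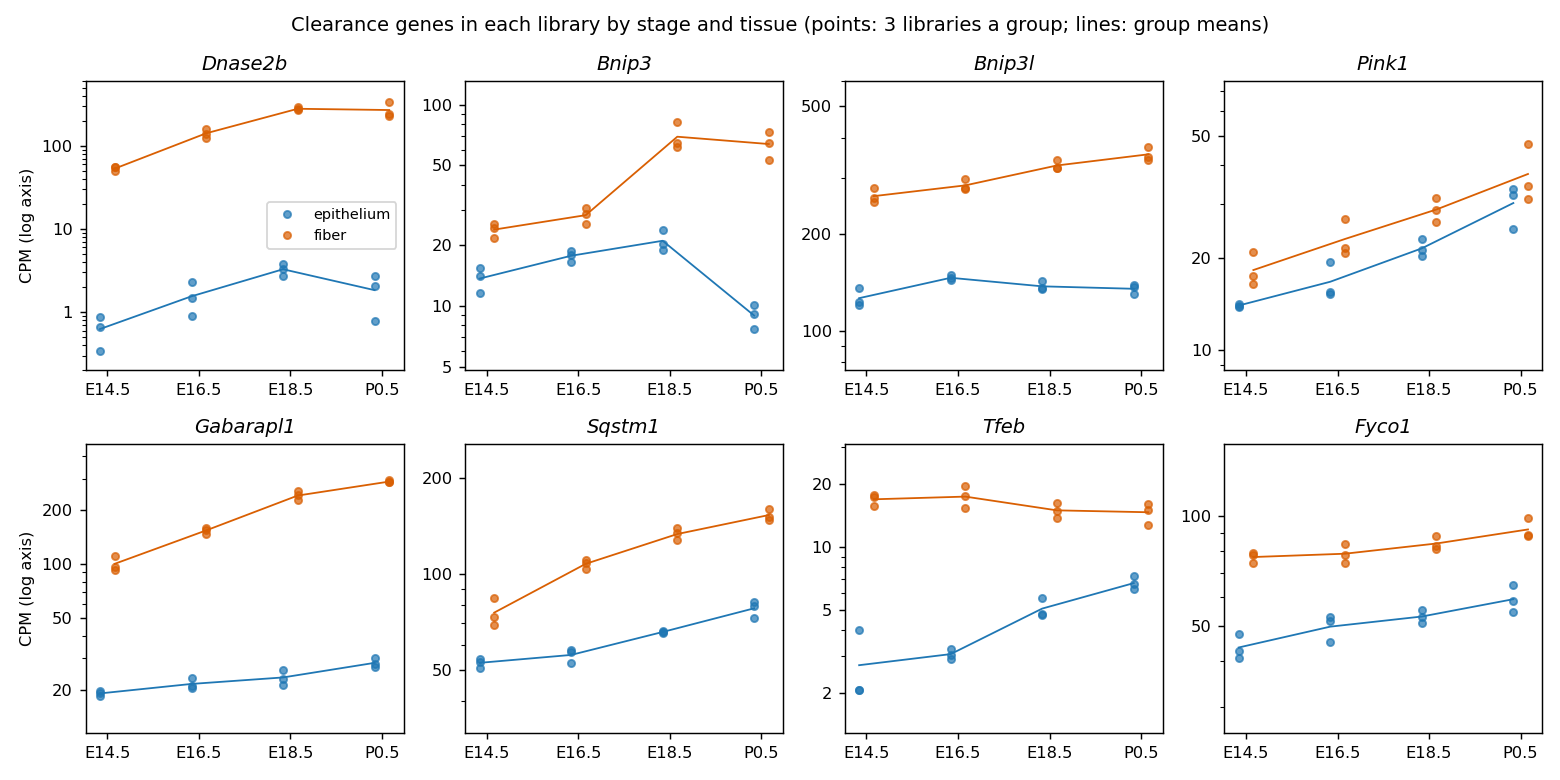
CPM of each clearance gene in every library, on log axes that differ between panels, by stage (x axis), with epithelium in blue and fiber in orange; points are the 3 libraries of a group and lines join group means. Fiber lies above epithelium for all 8 genes on this scale except at P0.5 for Pink1, where the libraries overlap, and the gap widens for Bnip3 and narrows for Tfeb.

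The fiber DNase gene had the widest tissue difference of the 8. Dnase2b lies on chromosome 3, 146580985 to 146615596, on the minus strand of GRCm38. In fiber its 3 libraries stood at 49.4, 54.9 and 54.8 CPM at E14.5, 125, 159 and 139 in the E16.5 libraries, 269, 292 and 274 in those of E18.5, and 241, 225 and 340 at P0.5. In epithelium they stood at 0.871, 0.345 and 0.66 CPM at E14.5, 1.47, 2.27 and 0.9 in the E16.5 libraries, 3.79, 3.31 and 2.72 in those of E18.5, and 0.773, 2.69 and 2.04 at P0.5. Every fiber library was above every epithelium library by a wide margin, and the counts in epithelium were only 5 to 57 per library. The fiber to epithelium difference was 6.40 ± 0.28 SE at E14.5, 6.45 ± 0.23 in the E16.5 libraries, 6.40 ± 0.21 in those of E18.5 and 7.18 ± 0.22 at P0.5 (145-fold, edgeR adjusted p = 6.7e-19). The difference did not change detectably from E14.5 to P0.5 (0.78 ± 0.58 SE, edgeR adjusted p = 0.295).

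Within fiber, Dnase2b rose early and then levelled. From E14.5 to E16.5 it rose by 1.42 ± 0.15 SE (2.67-fold, edgeR adjusted p = 3.9e-07), when 1.46% of all genes were higher. From E16.5 to E18.5 the difference was 0.98 ± 0.14 SE, just short of 2-fold, and it passed without E16.5 fiber replicate 2 (1.07) or without E18.5 fiber replicate 1 (1.0). From E18.5 to P0.5 it was -0.05 ± 0.14 SE and the libraries overlapped. In the order of the group levels, E18.5 and P0.5 fiber overlapped, as did P0.5 and E16.5 epithelium, and all other neighbours were separate.

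In epithelium Dnase2b moved between low levels. It was higher at E18.5 than at E16.5 (1.03 ± 0.36 SE, edgeR adjusted p = 0.0318), as were 6.75% of all genes, and at P0.5 than at E14.5 (1.57 ± 0.49 SE, edgeR adjusted p = 0.0082), although the libraries of the latter pair overlapped. The first call was lost without E16.5 epithelium replicate 1 (0.98) or 3 (0.78) and without E18.5 epithelium replicate 1 (0.90) or 2 (1.03), and the second without P0.5 epithelium replicate 2 (1.22). The summed level of 9 of 9 fiber markers in epithelium was 5350 to 6640 CPM at E14.5, 10200 to 11200 in the E16.5 libraries, 8000 to 8640 in those of E18.5 and 7050 to 9390 at P0.5, none of the 9 at 0. The marker sum was thus above its E14.5 level at all later stages, as the mean of Dnase2b was, but from E16.5 to E18.5 it was lower where Dnase2b was higher. The 3 genes most like Dnase2b over the 24 libraries did not follow the sum in that step. Their epithelium means were higher at E18.5: Bfsp1, 1 of the 9 markers, went from 84.5 to 114 CPM, Crygb from 116 to 239 and Birc7 from 0.583 to 1.63. The part of fiber RNA in the Dnase2b counts of epithelium was not tested.

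The related gene Dnase2a, which encodes the DNase II of most cells, was near the floor in both tissues. Per kilobase of exon it stood at 0.113 CPM ± 0.0271 (SD, n = 3) in E14.5 fiber and 0.118 ± 0.0872 in P0.5 fiber, against 19.0 ± 1.13 and 96.3 ± 22.3 for Dnase2b. Dnase2b therefore made up 99.3% to 99.6% of the RNA of the pair per length in the 3 E14.5 fiber libraries, and 39.2% to 75.2% in E14.5 epithelium. This share does not depend on the scaling of libraries, but it does on the exon lengths taken, 2.79 kb for Dnase2b and 5.39 kb for Dnase2a. In E14.5 epithelium it rests on 11, 5 and 11 counts of Dnase2b and 7, 15 and 17 of Dnase2a. Uox, a gene on the opposite strand whose span overlaps that of Dnase2b, was counted too. No source used here states whether counting used strand, so reads from any stretch that the pair shares cannot be assigned. Whether their exons overlap was not examined.

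The heat shock factor Hsf4 is known to act on Dnase2b in the lens, and its gene was among those higher in fiber (5.46 ± 0.05 SE averaged over stages, edgeR adjusted p = 8.7e-29). The promoter of Dnase2b is shown because it holds a pair of inverted heat shock units, in capitals, GAANNTTC. The sequence is the 250 bases before the RefSeq start, on the minus strand, chr3:146615599-146615848 on GRCm38.p6, written 5′ to 3′.
Dnase2b promoter: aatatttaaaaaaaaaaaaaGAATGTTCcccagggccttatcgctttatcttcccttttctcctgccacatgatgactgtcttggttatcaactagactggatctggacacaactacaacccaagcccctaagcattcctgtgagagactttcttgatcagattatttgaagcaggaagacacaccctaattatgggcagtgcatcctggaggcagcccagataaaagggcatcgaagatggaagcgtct
The match lies 230 to 223 bases before the start. GAANNTTC, which reads the same on both strands, occurs in 6.69% of 32851 such RefSeq windows, and the other arrangement, TTCNNGAA, in 7.17%. Of the other members, Fyco1 held TTCAGGAA in the window of its first start and GAAGCTTC in that of its second. A match is a run of letters, not a bound site.

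Among the mitophagy receptors, Bnip3 rose in fiber between E16.5 and E18.5 and fell in epithelium between E18.5 and P0.5. Bnip3 lies on chromosome 7, 138890836 to 138909519, minus strand. In fiber it stood at 25.7, 24.5 and 21.8 CPM at E14.5, 28.7, 30.8 and 25.5 in the E16.5 libraries, 62, 82.2 and 64.4 in those of E18.5, and 73.6, 64.9 and 53.3 at P0.5. In epithelium it stood at 11.6, 14.1 and 15.4 CPM at E14.5, 18.8, 17.9 and 16.6 in the E16.5 libraries, 20.3, 24 and 19.1 in those of E18.5, and 10.1, 9.1 and 7.67 at P0.5. All fiber libraries of E18.5 and P0.5 were above all those of E14.5 and E16.5, and the 3 P0.5 epithelium libraries were the lowest of the 24.

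The rise in fiber was in 1 step, E16.5 to E18.5 (1.29 ± 0.13 SE, 2.44-fold, edgeR adjusted p = 9.75e-08), in which 1.91% of all genes were higher, 0.724% lower, and Bnip3 was the only member to pass. The fall in epithelium was from E18.5 to P0.5 (-1.24 ± 0.15 SE, edgeR adjusted p = 2.06e-05), where 0.426% of all genes were lower and again no other member passed. The fiber to epithelium difference was 0.80 ± 0.14 SE at E14.5 and 0.67 ± 0.13 at E16.5, neither at 2-fold. It was 1.71 ± 0.13 SE at E18.5 and 2.84 ± 0.14 at P0.5 (7.14-fold, edgeR adjusted p = 3.94e-15). The widening from E14.5 to P0.5 was 2.03 ± 0.20 SE (edgeR adjusted p = 3.24e-08). The fiber step was 1.16 without E18.5 fiber replicate 2, the highest Bnip3 library and the one richest in Rn45s, and still passed. With library size only, the fiber step was 0.91 and did not pass, and the differences at E14.5 and E16.5 turned to -0.01 and -0.41. In the order of levels, E18.5 and P0.5 fiber overlapped, E16.5 and E14.5 fiber overlapped, and E14.5 fiber overlapped E18.5 epithelium.

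Bnip3 is a known target of the hypoxia factor Hif1, and its promoter is shown for the sites of that kind that it holds. The 250 bases before the RefSeq start lie at chr7:138909507-138909756 on GRCm38.p6, minus strand, with the E-box CACGTG, which overlaps the hypoxia core ACGTG on both strands, in capitals.
Bnip3 promoter: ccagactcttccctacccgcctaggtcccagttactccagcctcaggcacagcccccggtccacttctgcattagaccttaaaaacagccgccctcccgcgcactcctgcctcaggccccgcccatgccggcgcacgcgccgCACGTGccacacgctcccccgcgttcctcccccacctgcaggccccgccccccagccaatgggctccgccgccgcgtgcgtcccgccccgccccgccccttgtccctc
CACGTG is 108 to 103 bases before the start and occurs in 6.02% of windows, while ACGTG in either strand occurs in 16.6%. The second hypoxia core, GCGTG, matched at 3 places in this window and occurs in 28.2% of all. The longer palindromic CLEAR motif, to which Tfeb binds, is in 0.24% of windows and in none of the 10 windows of the 7 members that the promoter table holds.

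Other hypoxia targets were compared from a list of 12, of which 10 were tested. In the fiber step from E16.5 to E18.5, Pdk1 (1.61 ± 0.15 SE), Egln3 (1.15 ± 0.33) and Ndrg1 (1.05 ± 0.12) rose and none fell, with a list median of 0.70 beside 0.00 for all genes. Of all genes 1.91% rose and 0.724% fell in this step. With library size only the median of all genes was -0.36 there. Pdk1 encodes a mitochondrial kinase that inhibits pyruvate dehydrogenase and Egln3 an oxygen-sensing prolyl hydroxylase. In epithelium from E18.5 to P0.5, Ankrd37 (-1.40 ± 0.22 SE), Egln3 (-1.10 ± 0.15) and Ddit4 (-1.10 ± 0.19) fell and none rose, with a list median of -0.70 beside 0.00. Of all genes 0.579% rose and 0.426% fell between these stages. Over the whole course the list did not go with Bnip3 throughout. In epithelium Ndrg1 (2.15) and Egln3 (2.04) rose from E14.5 to P0.5 and none fell, while Bnip3 stood at -0.63. In fiber Ndrg1 (2.44), Egln3 (1.77) and Pdk1 (1.47) rose and Ddit4 (-1.12) fell. Of all genes 10.1% rose and 3.21% fell over this course in epithelium, and 6.69% rose and 5.24% fell in fiber. Hif1a changed by 0.84 in epithelium and -0.19 in fiber over this course, and passed in neither. The genes with levels most like those of Bnip3 over the 24 libraries were Pfkl (Pearson r = 0.981 of log2 CPM), Alkbh5 (0.956) and Aldoa (0.953), of 9681 genes compared. Pfkl and Aldoa encode glycolytic enzymes. Aldoa stood at 304 CPM ± 24.9 (SD, n = 3) in E16.5 fiber and 685 ± 28.6 in E18.5 fiber, and at 299.6 ± 28.8 in E18.5 epithelium and 190 ± 38.3 in P0.5 epithelium. The part of hypoxia or Hif1 in the changes of Bnip3 was not tested.

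Bnip3l, the paralog of Bnip3, was the more abundant of the pair per length in every group and was nearly flat with stage. It lies on chromosome 14, 66985239 to 67008877, minus strand. Its libraries ranged from 121 to 150 CPM (median 137) in epithelium and from 252 to 375 (median 309) in fiber, with no overlap between tissues. The fiber to epithelium difference was 1.06 ± 0.05 SE at E14.5, 0.95 ± 0.05 in the E16.5 libraries, 1.25 ± 0.05 in those of E18.5 and 1.39 ± 0.05 at P0.5 (2.62-fold, edgeR adjusted p = 6.93e-17). With library size only the averaged difference of 1.16 became -0.05. Within fiber it stood at 263 CPM ± 13.1 (SD, n = 3) at E14.5 and 355 ± 17.4 at P0.5 (0.43 ± 0.05 SE, under 2-fold; -0.12 with library size only). E16.5 and E14.5 fiber overlapped, as did the epithelium groups E18.5, P0.5 and E14.5 in that order.

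The mix of the receptor pair moved with Bnip3. Per kilobase of exon, Bnip3 made up 12.5% to 14.2% of the pair in E14.5 fiber libraries and 13.6% to 15% at E16.5. It made up 24.8% to 29.2% at E18.5 and 21% to 26.5% at P0.5. In epithelium its share was 18.6% to 23.1% at E18.5 and 9.1% to 11.2% at P0.5. These shares hold under any scaling of libraries. Bnip3l is abundant in maturing red cells, and red cell markers fell over the same stages: their summed level was 172 to 256 CPM in E14.5 epithelium and 2.7 to 4.7 at P0.5, with 4 of 8 (Hba-a1, Hba-a2, Hbb-bt and Hbb-bs) at 0 in every group. Bnip3l stood at 127 and 136 CPM in these 2 groups. The markers fell unequally, within fiber from E14.5 to P0.5 by -1.99 for Alas2 and -11.26 for Hbb-y, so their sum does not measure the number of red cells. The part of red cells in the level of Bnip3l was not tested.

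Pink1 rose in both tissues and was the member with the least difference between them. It lies on chromosome 4, 138313409 to 138326307, minus strand. In epithelium it stood at 13.8, 14 and 14.2 CPM at E14.5 and at 32.1, 33.6 and 24.8 at P0.5. In fiber it stood at 17.5, 20.9 and 16.4 CPM at E14.5 and at 34.3, 31.1 and 47 at P0.5. The P0.5 libraries were above the E14.5 libraries in each tissue, and the tissues overlapped at P0.5. From E14.5 to P0.5 Pink1 rose by 1.10 ± 0.14 SE in epithelium (edgeR adjusted p = 6.74e-07), where 10.1% of all genes were higher, and by 1.04 ± 0.14 in fiber (edgeR adjusted p = 2.15e-06), where 6.69% were. The rise in fiber fell short of 2-fold without E14.5 fiber replicate 3 (0.97) or without P0.5 fiber replicate 3 (0.84), and with library size only (0.49).

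The tissue difference of Pink1 was 0.31 to 0.46 at the 4 stages and passed at none. It turned to -0.81 averaged over stages with library size only and to -0.28 with library size after crystallins were left out. The change of that difference from E14.5 to P0.5 was -0.06 ± 0.20 SE (edgeR adjusted p = 0.826). In the order of its 8 group levels, 6 of 7 neighbouring pairs overlapped, all but E16.5 and E14.5 epithelium. Park2, which encodes parkin, the ligase that Pink1 activates, was higher in fiber (1.99 ± 0.08 SE averaged over stages, edgeR adjusted p = 1.91e-17).

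Gabarapl1 rose steadily in fiber and became the leading Atg8 gene there. It lies on chromosome 6, 129533160 to 129542346, plus strand. In fiber it stood at 97, 111 and 93.4 CPM at E14.5, 160, 156 and 148 in the E16.5 libraries, 242, 255 and 227 in those of E18.5, and 287, 286 and 293 at P0.5. In epithelium it stood at 18.4, 19.2 and 19.6 CPM at E14.5, 21.1, 23.2 and 20.4 in the E16.5 libraries, 23.1, 25.8 and 21.3 in those of E18.5, and 26.8, 30.1 and 27.8 at P0.5. All groups were separate in the order of levels except E18.5 and E16.5 epithelium.

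The fiber to epithelium difference of Gabarapl1 was 2.39 ± 0.08 SE at E14.5 and 2.84 ± 0.08 at E16.5. It was 3.36 ± 0.08 SE at E18.5 and 3.35 ± 0.07 at P0.5 (10.2-fold, edgeR adjusted p = 3.61e-21). It passed at each stage and averaged over stages under all scalings used, at 1.78 averaged with library size only. From E14.5 to P0.5 it rose by 1.52 ± 0.07 SE in fiber (2.87-fold, edgeR adjusted p = 1.81e-14; 0.97 with library size only). In epithelium the difference was 0.56 ± 0.08 SE, under 2-fold. The change of the tissue difference was 0.96 ± 0.10 SE (edgeR adjusted p = 1.42e-07), short of 2-fold, and reached it without E14.5 fiber replicate 2 (1.04) or P0.5 epithelium replicate 2 (1.01).

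The makeup of Atg8 RNA, counted per kilobase of exon over Gabarapl1, Gabarap, Gabarapl2, Map1lc3a and Map1lc3b, differed between the tissues. In epithelium Gabarap led at every stage, with 58.9% ± 0.53 (SD, n = 3) at E14.5 against 53.7% ± 1.03 by P0.5, and Gabarapl1 held 19.8% ± 0.57 and 21.5% ± 0.64. In fiber Gabarapl1 held 37% ± 1.58 at E14.5, 44.2% ± 1.28 in the E16.5 libraries, 53.3% ± 1.86 in those of E18.5 and 55.8% ± 0.86 at P0.5. Gabarap held 50.9% ± 1.52, 44.9% ± 0.67, 36.2% ± 1.74 and 33.7% ± 1.06 at these stages. The order of the pair thus turned between E14.5, where the libraries of Gabarap were all above those of Gabarapl1, and E18.5, where they were all below, and at E16.5 their ranges overlapped. In P0.5 fiber Map1lc3a and Map1lc3b, which encode LC3 proteins, held 2.94% ± 0.55 and 2.67% ± 0.20. The shares depend on the exon lengths taken, which are those of all annotated transcripts joined. That length is 7.52 kb for Map1lc3b and 1.18 kb for Map1lc3a. Not divided by length, they stood at 51.5 CPM ± 4.04 (SD, n = 3) and 8.91 ± 1.67 in P0.5 fiber.

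**Figure D2:**
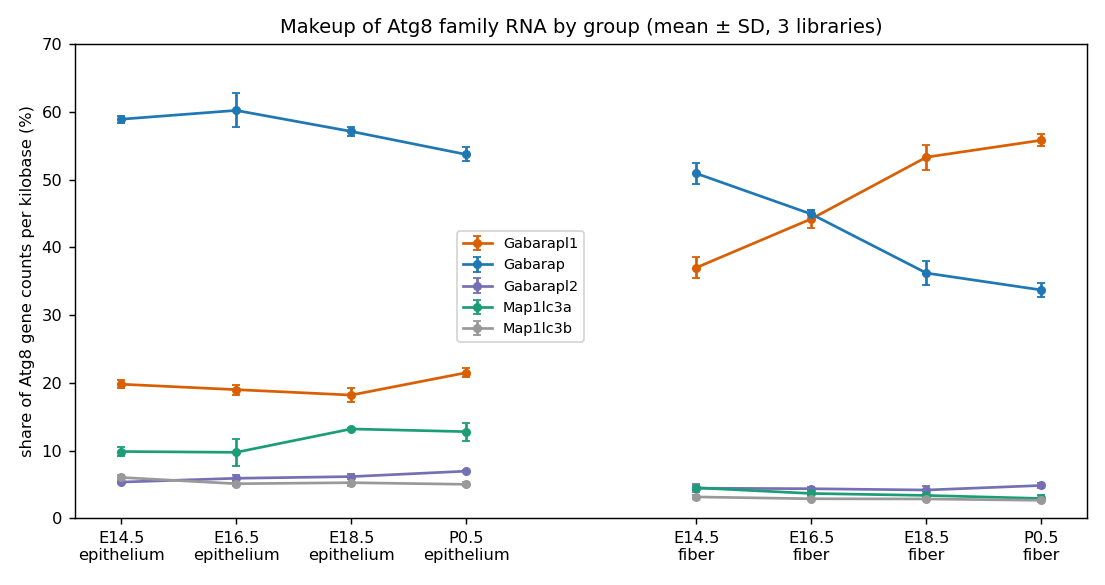
Share of each of 5 Atg8 genes in their summed counts per kilobase of exon (y axis, percent) in the 8 groups (x axis, epithelium left, fiber right), as mean ± SD of 3 libraries. Gabarap leads in epithelium, and in fiber Gabarapl1 starts at 37% (E14.5), reaches 55.8% (P0.5) and passes Gabarap.

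Sqstm1 was moderately higher in fiber and rose there by about the threshold. It lies on chromosome 11, 50199366 to 50210827, minus strand. Its fiber libraries stood at 69.3 to 84.2 CPM at E14.5, 104 to 111 in the E16.5 libraries, 128 to 139 in those of E18.5 and 148 to 160 at P0.5, with no overlap between stages. Its epithelium libraries stood at 50.8 to 54.2 CPM at E14.5, 52.6 to 57.7 in the E16.5 libraries, 65.3 to 66.3 in those of E18.5 and 72.9 to 81.9 at P0.5. The E14.5 fiber and P0.5 epithelium libraries overlapped, as did E16.5 and E14.5 epithelium.

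From E14.5 to P0.5 Sqstm1 rose by 1.02 ± 0.06 SE in fiber (2.02-fold, edgeR adjusted p = 6.1e-12). The change fell to or below 2-fold without E14.5 fiber replicate 1 (1.0) or 3 (0.96) or P0.5 fiber replicate 1 (0.98), and was 0.47 with library size only. The tissue difference passed at E18.5 (1.02 ± 0.06 SE, edgeR adjusted p = 4.64e-13; 0.99 without E18.5 fiber replicate 2). It did not pass at E14.5 (0.52), E16.5 (0.95) or P0.5 (0.97; 1.01, past the threshold, without P0.5 epithelium replicate 2). Averaged over stages it was 0.86 ± 0.03 SE with TMM and -0.34 with library size only. Sqstm1 protein binds Keap1 and so frees the antioxidant factor Nrf2. Of 10 genes of that axis, Hmox1 (4.90 ± 0.11 SE) and Traf6 (1.37 ± 0.04) were higher in fiber averaged over stages and none was lower. Of all genes 15.7% were higher and 22.2% lower, so the count of higher genes was near that share. With library size only 1 of the 10 was higher and 5 lower, where 587 of all 12427 genes were higher and 7423 lower. Within fiber from E14.5 to P0.5 Hmox1 (2.95) and Traf6 (1.05) rose and Nfe2l2, which encodes Nrf2 itself, fell (-1.25). In this comparison 6.69% of all genes rose and 5.24% fell. The other genes of the axis did not pass, from Gclc (0.94) to Txnrd1 (-0.50).

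Fyco1 differed little between groups. It lies on chromosome 9, 123789500 to 123851899, minus strand. Its libraries ranged from 74.4 to 98.6 CPM in fiber and from 40.7 to 64.7 in epithelium, with no overlap between the tissues. The difference was 0.82 ± 0.07 SE at E14.5, 0.66 ± 0.07 in the E16.5 libraries, 0.66 ± 0.07 in those of E18.5 and 0.63 ± 0.07 at P0.5, under 2-fold at each stage, and its average of 0.70 became -0.51 with library size only and 0.02 with library size after crystallins were left out. From E14.5 to P0.5 it was 0.44 ± 0.07 SE in epithelium and 0.25 ± 0.07 in fiber. In the order of levels 5 of 7 neighbouring pairs overlapped.

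Tfeb was flat in fiber and rose in epithelium, so that its tissue difference narrowed. It lies on chromosome 17, 47737030 to 47792419, plus strand. In fiber it stood at 15.7, 17.7 and 17.4 CPM at E14.5, 15.3, 17.5 and 19.5 in the E16.5 libraries, 14.9, 16.2 and 13.7 in those of E18.5, and 15.1, 12.8 and 16.1 at P0.5. Neighbouring fiber stages overlapped. In epithelium it stood at 2.06, 2.07 and 4.02 CPM at E14.5, 3.26, 3.03 and 2.92 in the E16.5 libraries, 5.72, 4.76 and 4.73 in those of E18.5, and 6.64, 6.28 and 7.23 at P0.5. The epithelium libraries of E18.5 and P0.5 were all above those of E14.5 and E16.5, and all were below fiber.

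The fiber to epithelium difference of Tfeb was 2.60 ± 0.17 SE at E14.5 (6.05-fold, edgeR adjusted p = 1.32e-12), 2.50 ± 0.17 in the E16.5 libraries, 1.54 ± 0.16 in those of E18.5 and 1.11 ± 0.15 at P0.5 (2.17-fold, edgeR adjusted p = 4.12e-07; -0.33 with library size only). The change of this difference from E14.5 to P0.5 was -1.48 ± 0.23 SE (edgeR adjusted p = 2.17e-05). In epithelium Tfeb rose by 1.27 ± 0.18 SE from E14.5 to P0.5 (2.41-fold, edgeR adjusted p = 2.64e-06). In fiber the difference was -0.21 ± 0.14 SE (edgeR adjusted p = 0.222).

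Pigment and retina markers rose in epithelium over the same course as Tfeb, E14.5 to P0.5, but not in every step. The summed level of the 6 pigment cell markers in the table was 4.2 to 11.2 CPM at E14.5, 2.09 to 7.27 in the E16.5 libraries, 147 to 173 in those of E18.5 and 70.4 to 159 at P0.5, and all 6 rose from E14.5 to P0.5, with none at 0 in epithelium. The 7 retina markers stood at 6.73 to 15.7 CPM at E14.5, 103 to 161 at E18.5 and 99.4 to 132 at P0.5, and 6 of them rose from E14.5 to P0.5. From E18.5 to P0.5 the mean of Tfeb went from 5.07 to 6.71 CPM (0.40 ± 0.17 SE, not passed). The ranges of both marker sums overlapped between these stages. Mitf, a relative of Tfeb that is the master regulator of pigment cells, rose in epithelium by 2.73 ± 0.19 SE (edgeR adjusted p = 3.21e-11), from 4.38 CPM ± 0.40 (SD, n = 3) at E14.5 to 46.0 ± 5.55 in the E18.5 libraries, with 29.0 ± 7.32 at P0.5. The part of other cells in the rise of Tfeb, and in those of Pink1 and Dnase2b in epithelium, was not tested.

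Of the 3 related factors, Mitf had the most RNA per kilobase of exon in fiber: it made up 68.0% ± 1.37 (SD, n = 3) of the sum of Tfeb, Tfe3 and Mitf at E14.5 and 76.0% ± 1.65 at P0.5. Tfeb held 14.3% ± 0.33 and 12.6% ± 0.86. Tfe3 made up 74.5% ± 1.42 in E14.5 epithelium but 17.7% ± 1.70 in fiber of that stage. In fiber the summed pigment cell markers were 2.43 to 4.31 CPM at E14.5 and 3.25 to 3.42 at P0.5, while Mitf stood at 88.2 CPM ± 5.28 and 96.6 ± 11.1.

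**Figure D3:**
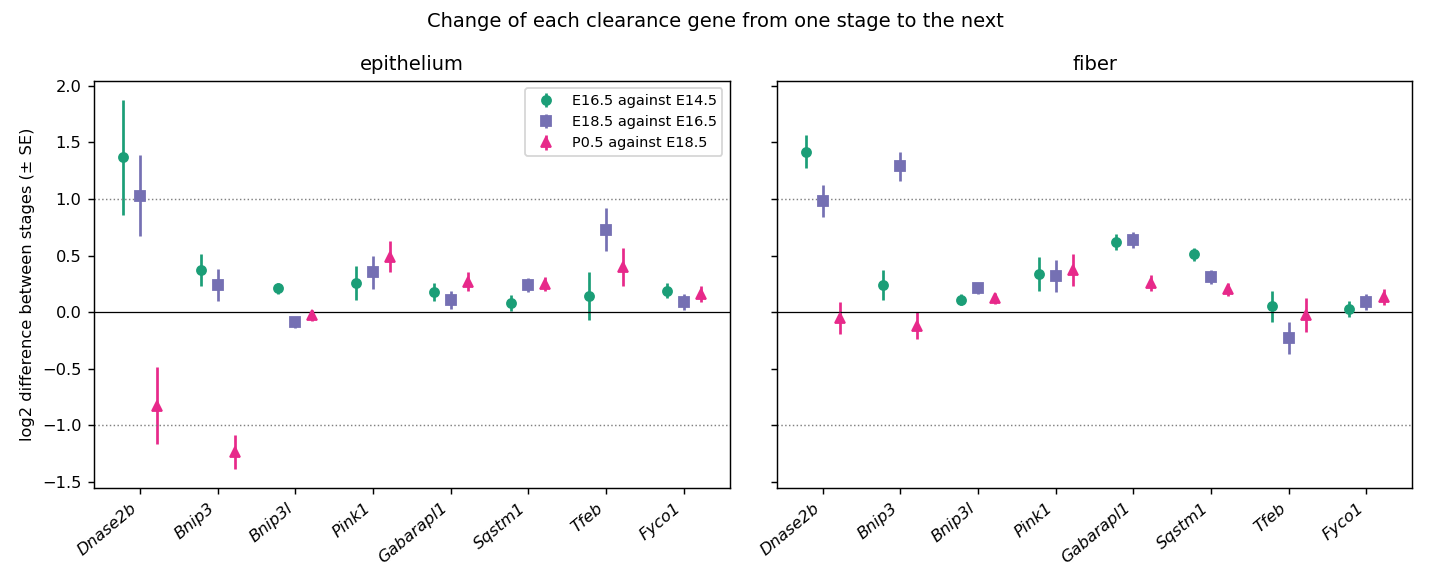
Log2 difference (y axis, ± SE) of each clearance gene (x axis) between successive stages in epithelium (left) and fiber (right), from the edgeR fit of 3 libraries a group; dotted lines mark 2-fold. In fiber Dnase2b from E14.5 to E16.5 (1.42) and Bnip3 from E16.5 to E18.5 (1.29) lie past 2-fold, and in epithelium Bnip3 from E18.5 to P0.5 (-1.24) and Dnase2b from E16.5 to E18.5 (1.03) do; Dnase2b from E14.5 to E16.5 in epithelium (1.37) did not pass the test.

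Over the whole course in fiber, E14.5 to P0.5, 5 of the 8 genes rose and none fell, with 6.69% of all genes higher and 5.24% lower: Dnase2b (2.34 ± 0.15 SE), Gabarapl1 (1.52), Bnip3 (1.41), Pink1 (1.04) and Sqstm1 (1.02). The median of the 8 was 1.03, beside -0.02 for all genes. Without E14.5 fiber replicate 3 the count was 3, and it was 1 with library size only and 3 with library size after crystallins were left out. With library size only 367 of all 12427 genes rose and 2168 fell. After crystallins were left out 657 of 12400 rose and 849 fell. In epithelium 3 rose (10.1% of all genes) and none fell (3.21%): Dnase2b, Tfeb and Pink1. From E14.5 to E16.5 in epithelium and from E18.5 to P0.5 in fiber no member passed by edgeR, with 1 and 0 passing by DESeq2. At an unadjusted p under 0.05 the counts for these steps were 5 and 4 of 8. For the tissue difference itself, the change from E14.5 to P0.5 passed upward for Bnip3 (3.77% of all genes) and downward for Tfeb (7.92%).

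**Figure D4:**
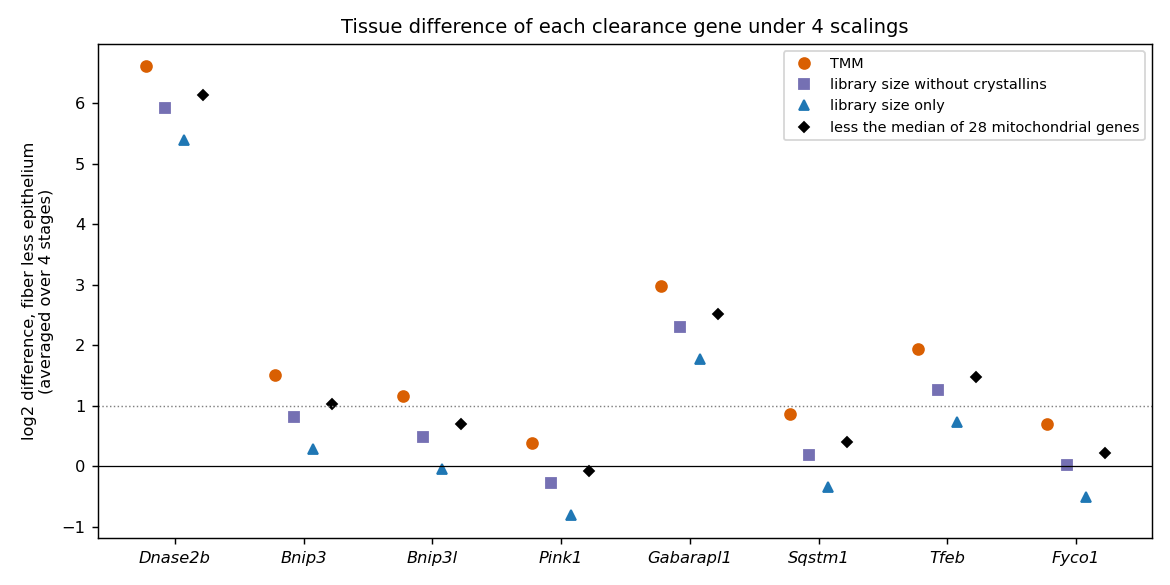
Log2 difference of each clearance gene between fiber and epithelium, averaged over 4 stages (y axis), with TMM (circles), library size after crystallins were left out (squares), library size only (triangles), and as the TMM value less the median of 28 mitochondrial genes (diamonds); the dotted line marks 2-fold. The order of the genes is the same under each scaling by construction, since scaling shifts all genes by nearly the same amount. Pink1, Sqstm1, Fyco1 and Bnip3l lie below 0 with library size only.

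A comparison free of library scaling sets each gene against 28 nuclear genes for mitochondrial proteins, whose RNA does not measure the amount of the organelle. These 28 genes had a median fiber to epithelium difference of 0.47 with TMM and -0.74 with library size only. Less that median, Dnase2b was at 6.14, Gabarapl1 at 2.52, Tfeb at 1.47, Bnip3 at 1.04, Bnip3l at 0.70, Sqstm1 at 0.40, Fyco1 at 0.23 and Pink1 at -0.07, all with TMM and within 0.01 of these with library size only. The values are alike under both scalings by construction, since the shift of all genes cancels. Within fiber from E14.5 to P0.5 the mitochondrial median was 0.08. Less that median, the change was 1.33 for Bnip3, 0.96 for Pink1 and 0.35 for Bnip3l.

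Per kilobase of exon, the order of the members in P0.5 fiber was Gabarapl1 (143 CPM ± 1.88, SD, n = 3), Dnase2b (96.3 ± 22.3), Bnip3l (92.0 ± 4.56), Sqstm1 (45.6 ± 1.86), Bnip3 (28.2 ± 4.5), Pink1 (14.0 ± 3.15), Fyco1 (10.4 ± 0.66) and Tfeb (2.59 ± 0.30). Dnase2b and Bnip3l overlapped, and Pink1 and Fyco1 were separate, with libraries from 11.6 to 17.6 and from 9.95 to 11.1. In E14.5 epithelium the order was led by Bnip3l (32.8 ± 2.11) and Sqstm1 (15.7 ± 0.51), and Dnase2b was last (0.224 ± 0.0949).

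Other genes of the same processes were compared by list, averaged over stages, where 15.7% of all genes were higher in fiber and 22.2% lower. Of 23 tested mitophagy receptors and regulators 6 were higher in fiber, led by Optn, which encodes the receptor optineurin (3.55 ± 0.06 SE), Park2 (1.99) and Nbr1, a cargo receptor related to p62 (1.36 ± 0.02). Hif1a was the only one lower (-1.92 ± 0.04 SE). The list median was 0.54 beside -0.03 for all genes. Of 14 genes of the Atg8 family and its conjugation 4 were higher, Atg4a (1.84), Atg12 (1.30), Gabarapl2 (1.28) and Gabarap (1.24), and none lower (median 0.68). With library size only these medians turned to -0.67 and -0.53, with 1 higher and 6 lower among the mitophagy genes and 0 and 6 among the Atg8 genes. Of all 12427 genes tested, 587 were higher and 7423 lower with that scaling.

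Of 18 tested genes of autophagosome traffic and fusion 4 were higher in fiber, near the share of all genes, such as Mapk8ip1, a kinesin adaptor (2.65 ± 0.04 SE), and Epg5, a tether of autophagosomes to lysosomes (1.35 ± 0.05), and Vamp8 was lower (-1.93 ± 0.14). Of 18 genes of the Tfeb family and its control 6 were higher, among them Mitf (2.80), Mcoln1, the lysosomal calcium channel (1.75), and Rragc, a GTPase that recruits Tfeb to lysosomes (1.69), and 3 were lower, Tfec (-3.83), Rragb (-2.16) and Fnip2 (-1.41). Of 20 lysosome genes 6 were higher, such as Lamp1 (1.43) and Ctsd (1.40), and none lower. The medians of these lists were 0.47, 0.41 and 0.66, and turned to -0.74, -0.80 and -0.54 with library size only.

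Of 17 tested nucleases and genes of nuclear breakdown, Trex1, which encodes a DNA exonuclease, was the only one higher in fiber (3.03 ± 0.07 SE, edgeR adjusted p = 1.13e-21), and it rose within fiber from E14.5 to P0.5 (3.03 ± 0.13 SE). The 6 that were lower included Cdk1 (-4.67), the mitotic kinase, Lmnb1 (-2.92), a lamin, and Lbr (-2.44), the lamin B receptor. The list median was -0.62. Of 8 regulators linked to Dnase2b and fiber differentiation Hsf4, Maf (2.55) and Prox1 (1.22) were higher and Foxe3 (-3.80) and Pax6 (-1.69) lower. With library size only 2 of the 8 were higher and 5 lower, and among the nucleases 1 was higher and 16 lower. Of all 12427 genes tested, 587 were higher and 7423 lower with that scaling.

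Over the course from E14.5 to P0.5, fewer genes of these lists passed than in the tissue comparison. In fiber, where 6.69% of all genes rose and 5.24% fell, 0 of 23 mitophagy genes, 1 of 14 Atg8 genes (Gabarapl2, 1.05), 0 of 20 lysosome genes and 1 of 18 Tfeb family and control genes (Rragc, 1.26) rose and none fell. For the mitophagy and lysosome lists DESeq2 passed 1 and 0 genes, and 16 and 12 had an unadjusted p under 0.05 in edgeR. In edgeR all were under 2-fold, with the largest change at 0.98 (Optn). In epithelium, where 10.1% of all genes rose, 4 of 20 lysosome genes rose, among them Ctsl (1.80), Ctsd (1.37) and Hexa (1.18). Macrophages are rich in these enzymes, and the summed level of 7 macrophage markers in epithelium was 15.1 to 21.5 CPM at E14.5 and 24.9 to 28.1 at P0.5, none at 0; their part in the rise was not tested.

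The genes most like each member over the 24 libraries were named by Pearson correlation of log2 CPM, a description in which tissue and library are shared by all points. Dnase2b was followed by the fiber genes Crygb (r = 0.993), Bfsp1 (0.993) and Birc7 (0.991). Its r with Bfsp1 was 0.99 within the 12 fiber libraries and 0.83 within the 12 epithelium libraries. Gabarapl1 was followed by Prickle1 (0.997), Dnajb2 (0.996) and Wnt7a (0.996), Bnip3l by Fam46c (0.994), Prkaa2 (0.993) and Smco3 (0.993), and Sqstm1 by Furin (0.985), Ltbr (0.980) and Psmf1 (0.978). Pink1 was followed by Nt5dc3 (0.948), Cdh23 (0.930) and Crebrf (0.922), and Fyco1 by Scamp1 (0.987), Hipk3 (0.979) and Dennd1b (0.979). For Tfeb, r was 0.979 with Arel1 and 0.977 with Ttc39b, but 0.58 and 0.41 within fiber.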

How the data were processed

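Per the labels, RNA of microdissected lens tissue was sequenced, and the deposited table holds whole-number read counts per gene symbol for 24 libraries. The submitters' processing notes name HTSeq 0.6.1, TopHat2 2.0.13, Cufflinks 2.2.1, Cuffdiff and Trim Galore 0.4.1, and no source used here states the strand setting. All table columns of samples were mapped by name. Genes with low counts were removed by filterByExpr in edgeR 4.0.16 (R 4.3.3; minimum count 10, minimum total 15), which left 12427 of 12611 genes. Libraries were scaled by TMM, 8 group means were fitted in 1 quasi-likelihood model with 16 residual degrees of freedom, and p-values were adjusted by Benjamini-Hochberg over all genes tested. A gene passed at an adjusted p under 0.05 and a 2-fold change. The fit was tested on simulated data. Counts per kilobase use exon lengths of GENCODE M21, and promoters are RefSeq's. DESeq2 1.42.0, other scalings, no filter, a replicate block, fits of only the libraries compared and leaving out each library were tried; library size without crystallins and without TMM was added after seeing the data. The members and lists were chosen with earlier results of these data known. Named genes are all members, the 3 passing list genes with the largest change in each direction, cell type markers, and the 3 genes with the highest Pearson correlation to each member among those that reach 10 CPM; other list genes named were chosen after their values were seen, and some genes that the rule names are not reported here. Nothing says that replicates came from separate animals beyond the word biological, so p-values measure the spread between these samples.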

Additional observations from a re-analysis of the deposited data

Results flagged for a closer look

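The difference between fiber and epithelium changed between E14.5 and P0.5 for Bnip3 and for Tfeb, by the test of that change itself in edgeR. For Bnip3 it widened by 2.03 ± 0.20 SE on the log2 scale (adjusted p = 3.24e-08), from 0.80 in the first of these stages to 2.84 in the second. For Tfeb it narrowed by a log2 change of -1.48 ± 0.23 SE (adjusted p = 2.17e-05), from 2.60 to 1.11. Both passed under library size only as well, at 1.40 and -2.13. Of all genes tested, 3.77% passed upward and 7.92% downward in this comparison.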

How the results depend on the processing

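The 112 single-gene values kept their direction and call with crystallins left out before TMM, with no filter and with the replicate block, under which the 5 genes higher in fiber averaged over stages were again 5. Whether equal replicate numbers share animals is not stated, and the check did not meet the bar for pairing: 3 of 12 correlations of deviations were over 0.1 (-0.066 to 0.221), and 6 of 12 pairs correlated best with their own number. DESeq2, fits of only the libraries compared and both library size scalings each gave 1 passing gene, not 0, from E14.5 to E16.5 in epithelium. With library size only, which moves the median of all genes to -1.23, the count of passing genes was 3 at E18.5 and 4 at P0.5 (1 of them each time, Pink1, lower in fiber), 2 averaged over stages, 0 in the fiber step E16.5 to E18.5 and 1 over the fiber course. Fiber against epithelium then turned, in the order E14.5, E16.5, E18.5, P0.5 and averaged, to -0.43, -0.62, -1.05, -1.14 and -0.81 for Pink1 and -0.29, -0.13, -0.47, -0.48 and -0.34 for Sqstm1. From E16.5 on it turned to -0.42, -0.82, -0.82 and -0.51 for Fyco1 and -0.13, -0.25, -0.06 and -0.05 for Bnip3l, for Bnip3 to -0.01 (E14.5) and -0.41 (E16.5), and for Tfeb to -0.33 at P0.5. Within fiber it turned Bnip3l (-0.12), Tfeb (-0.18) and Fyco1 (-0.20) from E14.5 to E16.5, Bnip3l (-0.16), Pink1 (-0.02), Sqstm1 (-0.06) and Fyco1 (-0.26) from E16.5 to E18.5, Tfeb (0.02) from E18.5 to P0.5, and Bnip3l (-0.12) and Fyco1 (-0.30) over the course, and the change of the tissue difference of Bnip3l (-0.30) and Sqstm1 (-0.19). With library size without crystallins and no TMM, added after seeing the data, the counts were 2 at E18.5, 3 at P0.5, 3 averaged and 3 over the fiber course. The tissue difference turned to -0.06, -0.21, -0.48, -0.38 and -0.28 for Pink1 and to 0.00, -0.25 and -0.06 for Fyco1 at E16.5, E18.5 and P0.5. Within fiber it turned Bnip3l (-0.07), Tfeb (-0.14) and Fyco1 (-0.15) from E14.5 to E16.5, Bnip3l (-0.01) and Fyco1 (-0.11) from E16.5 to E18.5, and Dnase2b (0.20), Bnip3 (0.16) and Tfeb (0.23) from E18.5 to P0.5. Leaving out 1 library gave 3 to 5 passing genes over the fiber course, 0 to 1 in epithelium from E14.5 to E16.5 and from E16.5 to E18.5, and 1 to 2 in fiber from E16.5 to E18.5. It turned only values near 0: from E18.5 to P0.5 in fiber Bnip3 (-0.22 to 0.01), Dnase2b (-0.26 to 0.06) and Tfeb (-0.10 to 0.07), in epithelium Bnip3l (-0.05 to 0.00), from E14.5 to E16.5 Fyco1 (-0.01 to 0.07) and Tfeb (-0.04 to 0.13) in fiber and Tfeb (-0.03 to 0.57) in epithelium, and the change of the tissue difference of Pink1 (-0.26 to 0.06). The cause of these turns beyond the shift of all genes was not tested. The 5 to 57 counts of Dnase2b per epithelium library limit its values there.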

Other observations

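By gene span, a gene on the opposite strand that is in the count table overlaps Dnase2b, Gabarapl1 and Sqstm1 each. Opposite-strand genes also overlap Bnip3 (Gm45507 and Gm18258) and Fyco1 (Cxcr6), but the count table does not hold them. Uox, which encodes urate oxidase and overlaps Dnase2b, stood in fiber at 1.32 CPM ± 0.49 (SD, n = 3) at E14.5, 8.58 ± 2.18 in the E16.5 libraries, 23.9 ± 3.39 in those of E18.5 and 21.3 ± 4.82 at P0.5, and at 0.39 or less on average in each epithelium group. The transcript 1700101I11Rik, which overlaps Gabarapl1, stood in fiber at 2.51 CPM ± 0.76, 6.21 ± 0.34, 18.2 ± 1.21 and 20.7 ± 2.21 at these stages, and at 0.22 or less on average in epithelium. Mrnip, which overlaps Sqstm1, lay between 2.8 and 5.88 CPM in all 24 libraries. The order of the stages in fiber was the same for Uox as for Dnase2b and for 1700101I11Rik as for Gabarapl1. Without the strand setting of the counting, reads from any stretch that a pair shares cannot be assigned. Whether the exons of each pair overlap was not examined.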
